A study of Mus musculus with 51 samples.

Results

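The squamocolumnar junction is the line where the stratified squamous lining of the oesophagus and forestomach meets the glandular epithelium of the stomach. Sorted columnar and squamous cells of the mouse junction were compared gene by gene. The comparison takes every library labelled as the columnar or the squamous part of the junction, which is 7 of the 51 libraries in the series, and every autosomal gene, which is 48182 of the 52636 genes in the table. Of these, 32253 had a count in the 7 libraries and 16609 passed the filter on low counts and were tested. The columnar group (n = 4) held cells of Krt8YFP mice on a mixed genetic background that were high for EpCAM and positive for YFP, a fluorescent reporter named for the keratin gene Krt8. The squamous group (n = 3) held cells of Krt8YFP mice, with no strain given, that were high for EpCAM and negative for YFP. No source used here gives ages, the number of animals or any pooling, so p-values measure the spread between libraries, which may be in part technical. The YFP gate differed between the groups together with the tissue part, and so did the number that opens each raw sample name (9 for columnar, 10 for squamous), whose meaning is not stated, so these cannot be told apart from the type of epithelium. Since the sort used YFP and EpCAM, Krt8 and Epcam are given as descriptions only.

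Other pairs of groups serve for comparison. K8YFP+ and K8YFP- cells (n = 3 each) came from the oesophagus of Krt5-SmoM2-Krt8YFP mice on a mixed background, were high for EpCAM and were split on YFP, and SmoM2 is an active form of Smoothened driven there from the basal keratin gene Krt5. Stomach cells (n = 2) were sorted on YFP from Krt8YFP mice on a mixed background, and WT oesophageal cells (n = 6) came from wild-type CD1 mice and were low for EpCAM.

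Columnar gastric epithelium is a single layer of cells joined by tight junctions, and it secretes mucins, trefoil peptides, digestive enzymes and acid from pit, neck, chief, parietal, endocrine and tuft cells. Squamous epithelium is layered: basal cells attach to the basement membrane through hemidesmosomes and divide, and the cells above them switch keratins, cross-link a cornified envelope and are shed. GATA, HNF4 and FOXA transcription factors are known for their roles in endodermal glandular tissue, and p63, AP-2 and GRHL factors for theirs in stratified epithelium.

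Levels are CPM, counts scaled to a common library total, and a log2 fold is columnar over squamous from edgeR, scaled by TMM, with its SE. The SE was derived as the absolute fold over the square root of its quasi-likelihood F. Where a group has no count, the fitted fold and this SE depend on the prior count. A gene is called where its two-sided quasi-likelihood p, Benjamini-Hochberg adjusted over all genes tested, is under 0.05. Where a group had no count, the fold is a bound against 3 counts over the group (0.135 CPM in columnar, 0.151 CPM in squamous libraries). Where a group had 1 to 3 counts, the ratio of the groups' CPM is given with its 95% interval. Bounds and intervals cover counting error only. Library totals were 4286047 to 6504645 counts in the columnar and 6384322 to 7015437 counts in the squamous group. Mitochondrial genes took 4.83 to 6.73% of counts in columnar and 3.80 to 4.82% in squamous libraries, and their part in the results was not tested. Correlations of log2(CPM + 1) across genes were 0.973 to 0.989 among columnar libraries, 0.990 to 0.991 among squamous libraries and 0.659 to 0.679 between the groups. Among the columnar libraries, 1 and 2 were closer to each other (chi-square per degree of freedom 3.96) than to 3 and 4, with which they gave 13.3 to 14.5, and no pair of libraries differed by as little as sampling noise.

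The marker genes of both tissues lay with the labelled groups. The summed level of 4 pit cell markers was 4383 to 7653 CPM in columnar and 0 to 0.615 CPM in squamous libraries, and that of 5 neck and chief cell markers was 14190 to 34796 CPM in columnar and 3.14 to 4.23 CPM in squamous libraries. Summed basal squamous markers ran from 21.4 to 108 CPM in columnar and from 9210 to 10512 CPM in squamous libraries, and suprabasal markers from 6.30 to 31.4 CPM in columnar and from 2041 to 2361 CPM in squamous libraries. Squamous transcripts were low but present in columnar libraries, highest in columnar 4. Immune markers summed to 57.4 to 118 CPM in columnar and 10.5 to 17.4 CPM in squamous libraries, and in columnar libraries nearly all of the sum was Ptprc, the leukocyte antigen CD45, at 106, 114, 54.4 and 74.8 CPM. The T cell gene Cd3e, in contrast, averaged 0.0452 ± 0.0904 CPM in columnar and 12.1 ± 3.35 CPM in squamous libraries (SD, n = 4 and 3), and the macrophage genes Adgre1 and Tyrobp were at or under 1 count in each of the 7 libraries. Summed tuft cell markers ran in the same order as Ptprc over columnar 1 to 4, at 3420, 3847, 1914 and 2869 CPM. Which cells carried Ptprc was not tested. Fibroblast markers summed to 9.53 to 30.6 and 17.2 to 34.9 CPM, endothelial to 7.99 to 10.3 and 7.68 to 12.1 CPM, muscle to 0.467 to 3.98 and 0.470 to 1.14 CPM, and neural and glial to 2.53 to 3.74 and 3.38 to 6.56 CPM in columnar and squamous libraries. Of the longer lists, 3 immune genes were higher and 3 lower of 7 tested, 4 fibroblast genes higher and 3 lower of 7, 1 endothelial gene higher and 1 lower of 4, 1 muscle gene higher and 1 lower of 3, and 3 neural genes higher and 1 lower of 4. The fibroblast list held Fn1, fibronectin, which epithelia also make, at 246, 431, 220.2 and 274 CPM in columnar and 11.9, 18.9 and 16.5 CPM in squamous libraries. The part of these other cells in the results was not tested, and in bulk samples fewer cells of a type and less RNA per cell cannot be told apart.

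**Figure D1:**
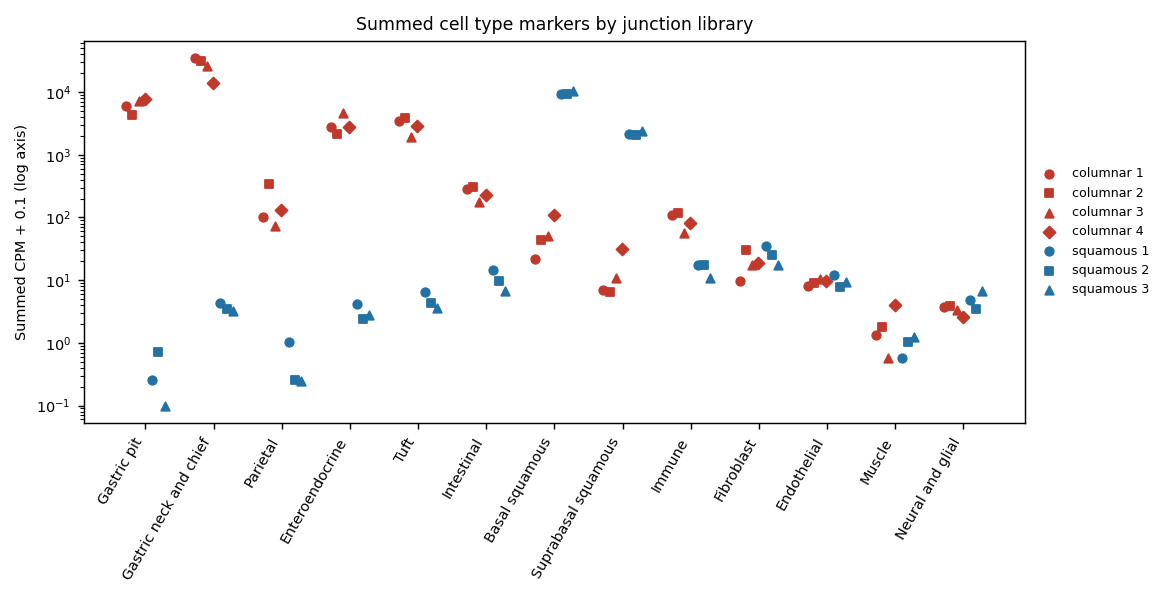
Summed CPM plus 0.1 (log axis) of marker genes of 13 cell types in each columnar library (left in each pair) and squamous library (right). Gastric sums are high in columnar and near 0 in squamous libraries except for parietal cells, which reach 339 CPM at most, and squamous sums run the other way.

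Columnar and squamous cells differed in most of the genes tested. Of 16609 autosomal genes, 12371 were called (74.5%), with 6539 higher (39.4%) and 5832 lower (35.1%) in columnar cells, and the median log2 fold over all of them was 0.08. An absolute log2 fold of at least 1 was reached by 7859 of the called genes (47.3% of those tested), of at least 2 by 4138 (24.9%) and of at least 5 by 1285 (7.74%). The columnar and squamous libraries did not overlap in 12609 genes (75.9%). The split depends on the scaling: TMM factors were 1.07 to 1.12 in columnar and 0.874 to 0.896 in squamous libraries, and scaling by library totals alone moved the median log2 fold by 0.31 and called 8227 genes higher and 4496 lower (64.7% of calls higher, against 52.9%). Small folds near 0 are therefore read relative to that shift. Calls were spread over the genome, from 71.8% of tested genes on chromosome 12 to 77.0% on chromosome 14. Among the tested genes named with values below, the libraries of the groups overlapped for Cck, Cdh1, Itgb4, Sox2 and Ptch1. In 40 gene lists with 642 autosomal members, 508 members were tested, of which 228 were higher and 232 lower. Counts of called members in any list are to be read beside the shares of all genes tested, 39.4% higher and 35.1% lower. Where a list's genes are near 0 in one group, a member could pass the filter on low counts only through the group where it is high, so the counts and medians of tested members given below describe those members and are no support for a direction of the list.

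**Figure D2:**
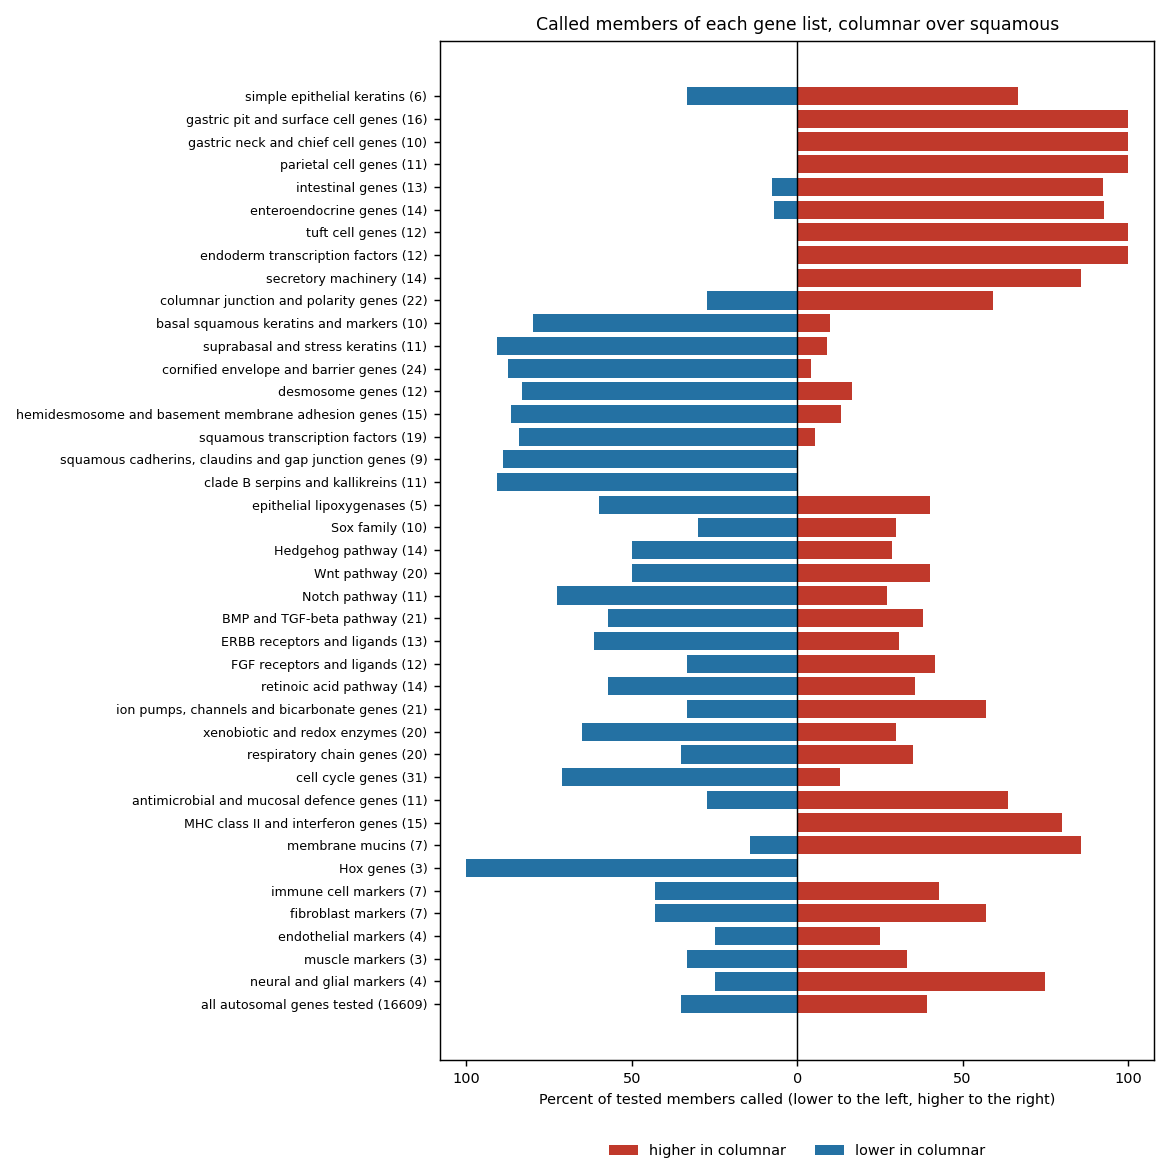
Percent of tested members of each gene list called higher (right) or lower (left) in columnar over squamous cells, with the number tested beside each name and all autosomal genes tested as the last bar. Every tested pit, neck and chief, parietal, tuft and endoderm factor gene was higher, whereas squamous keratins, cornified envelope, cadherin and serpin genes were nearly all lower.

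Among the genes with the largest folds in the columnar direction were secreted and digestive proteins (Bpifb1, Pgc, Chia1, Clps, Pla2g1b and Tff2), the mucin-like Dpcr1, the claudin Cldn18 and the signalling gene Rgs13. Bpifb1 (chromosome 2 at 154190818 to 154220369), a secreted defence protein of mucosal surfaces, stood at 4828, 5170.1, 1992 and 1963 CPM in columnar libraries and at 0 in all 3 squamous libraries, at least 24266-fold higher (edgeR adjusted p = 1.75e-07). Pgc (chromosome 17 at 47726842 to 47734482), the zymogen pepsinogen C, had 12875, 11075, 12753 and 6689 CPM in columnar and 0, 0.154 and 0 CPM in squamous libraries, a ratio of 215656-fold (95% counting interval 38706 to 8518010). Chia1, an acidic chitinase of the stomach, had 1152, 2539.5, 4348 and 743 CPM in columnar libraries and no count in squamous ones, at least 13499.9-fold higher. Both Pgc and Chia1 were lowest in columnar 4, and for both the groups did not overlap. Clps, the colipase that anchors pancreatic lipase, and Pla2g1b, a digestive phospholipase, are known from the pancreas. They averaged 2919 ± 1117 and 3915 ± 1233 CPM in columnar cells (SD, n = 4), against 0.0522 ± 0.0904 and 0.151 ± 0.00743 CPM in squamous cells (n = 3). Tff2, the trefoil peptide of neck cells, had 1387, 1139.8, 1442 and 1368 CPM in columnar libraries and none in squamous ones, at least 8808-fold higher (adjusted p = 2.2e-10, edgeR). Dpcr1, a mucin-like gene, was at least 10529.5-fold higher and Cldn18, the claudin of gastric tight junctions, at least 4948-fold higher, each with no squamous count. Rgs13, a regulator of G-protein signalling found in tuft cells, ran at 509, 656, 280.4 and 305 CPM in columnar libraries and was at least 3004-fold higher. The gastrokines Gkn1, Gkn2 and Gkn3, secreted by surface cells, lie side by side on chromosome 6 from 87345650 to 87388935 and summed to 3109 to 4019 CPM in columnar and 0 to 0.157 CPM in squamous libraries.

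Among the genes with the largest folds in the squamous direction were the envelope genes Sprr2d and Tgm1, the protease inhibitors Serpinb2, Spink5 and Pi15, the signalling ligands Calcb and Nrg1, and Muc15, Klk11, Gpnmb and Mt4. Sprr2d (chromosome 3 at 92339140 to 92340873), a cornified envelope precursor, had no count in columnar libraries and 110.4, 102 and 154 CPM in squamous libraries, at least 911-fold lower (edgeR adjusted p = 1.38e-08), although reads of the near-identical Sprr2 copies are uncertain. Serpinb2 (chromosome 1 at 107511423 to 107535478), the plasminogen activator inhibitor PAI-2, had 0, 0.17, 0.7 and 0.723 CPM in columnar and 1550.2, 1517 and 2212 CPM in squamous libraries, a log2 fold of -12.47 ± 0.32. Tgm1, the transglutaminase that cross-links the envelope, fell to 0.217 ± 0.23 CPM in columnar cells, against 863 ± 58.1 CPM in squamous cells (SD, log2 fold -12.08 ± 0.22). In each of these genes the highest columnar library was far under the lowest squamous one. Calcb, a calcitonin gene-related peptide, had no columnar count and 103, 98 and 131 CPM in squamous libraries, at least 825-fold lower. Nrg1, an ERBB ligand, had 0.154, 0, 0.933 and 0.904 CPM in columnar and 771, 669 and 677 CPM in squamous libraries (log2 fold -10.85 ± 0.28). Spink5, an inhibitor of kallikreins, averaged 0.429 ± 0.456 CPM in columnar and 711 ± 40.8 CPM in squamous cells. Muc15, a membrane mucin, and Klk11, a kallikrein protease, had no columnar count and were at least 314-fold and at least 261-fold lower. Gpnmb, a glycoprotein of melanosomes and lysosomes, Pi15, a protease inhibitor, and the squamous metallothionein Mt4 each had a single count among the columnar libraries and averaged 272 ± 74.2, 268 ± 32.3 and 103 ± 20.3 CPM in squamous cells (SD, n = 3).

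The sequences before the start of 6 of these genes are shown, so that the letters can be set beside the levels above. They are the 250 bases upstream of the start, from RefSeq on GRCm38.p6, each read 5′ to 3′ on the gene's strand. RefSeq's table gives 2 starts for Cldn18 and for Serpinb2, of which the first listed is shown, and which start is used in these cells was not examined. Capitals mark the GATA motif AGATAA and the AP-1 motif TGANTCA, found on either strand.

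Gkn1 (chr6:87350916-87351165, minus strand): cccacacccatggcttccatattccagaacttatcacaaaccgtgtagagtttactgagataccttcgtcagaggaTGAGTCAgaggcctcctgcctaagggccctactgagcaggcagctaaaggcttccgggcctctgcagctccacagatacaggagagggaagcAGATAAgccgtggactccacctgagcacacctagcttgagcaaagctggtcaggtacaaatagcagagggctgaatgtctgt
Gkn2 (chr6:87373115-87373364, plus strand): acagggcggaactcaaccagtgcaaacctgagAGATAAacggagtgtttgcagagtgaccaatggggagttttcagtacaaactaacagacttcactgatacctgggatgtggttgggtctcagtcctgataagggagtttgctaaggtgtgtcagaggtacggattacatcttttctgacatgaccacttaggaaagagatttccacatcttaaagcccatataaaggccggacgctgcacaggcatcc
Gkn3 (chr6:87388936-87389185, minus strand): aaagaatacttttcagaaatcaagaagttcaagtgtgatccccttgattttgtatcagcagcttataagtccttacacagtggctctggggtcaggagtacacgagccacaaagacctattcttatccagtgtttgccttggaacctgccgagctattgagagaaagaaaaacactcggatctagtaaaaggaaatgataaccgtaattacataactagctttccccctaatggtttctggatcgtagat
Cldn18 (chr9:99717268-99717517, minus strand): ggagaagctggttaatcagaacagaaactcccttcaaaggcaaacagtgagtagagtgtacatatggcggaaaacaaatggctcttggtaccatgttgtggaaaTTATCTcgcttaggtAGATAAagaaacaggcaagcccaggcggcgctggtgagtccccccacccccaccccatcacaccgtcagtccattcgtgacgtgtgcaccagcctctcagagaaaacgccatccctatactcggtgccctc
Sprr2d (chr3:92338890-92339139, plus strand): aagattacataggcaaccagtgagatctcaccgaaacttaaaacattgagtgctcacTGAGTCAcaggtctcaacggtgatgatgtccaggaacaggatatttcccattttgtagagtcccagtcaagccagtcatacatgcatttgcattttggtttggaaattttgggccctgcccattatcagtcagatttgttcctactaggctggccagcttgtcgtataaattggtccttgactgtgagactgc
Serpinb2 (chr1:107511173-107511422, plus strand): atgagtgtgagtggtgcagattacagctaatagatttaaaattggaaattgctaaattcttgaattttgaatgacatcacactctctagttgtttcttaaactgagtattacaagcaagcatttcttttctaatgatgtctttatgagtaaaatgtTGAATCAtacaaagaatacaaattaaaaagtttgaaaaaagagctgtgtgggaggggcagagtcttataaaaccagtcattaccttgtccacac

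Among the 4 windows shown for columnar genes, GATA letters stood at -82 in Gkn1, at -218 in Gkn2 and at -146 and -131 in Cldn18, counted from the start, with none in Gkn3. Gkn1 also held AP-1 letters at -174, and both windows shown for squamous genes held AP-1 letters, Sprr2d at -193 and Serpinb2 at -94. The windows shown are not typical in this. Of the 12 largest folds in the squamous direction, 6 had a promoter window, and only these 2 held AP-1 letters. Of the 12 largest in the columnar direction, 9 had a window and 4 held GATA letters, among them Gkn1, Gkn2 and Cldn18. Motifs were searched on both strands in 1 promoter window, the first listed, of each of 10537 tested autosomal genes. These are the genes for which RefSeq's table gives a window of full length, with chromosome 18 left out. GATA letters were in 16.7% of the 78 promoters of columnar list members called higher and in 7.94% of the 63 promoters of squamous list members called lower, against 5.87% of all. AP-1 letters were in 8.97% of the columnar and 27.0% of the squamous promoters, against 4.65% of all. The 17 squamous promoters with AP-1 letters included those of Sprr1a, Sprr1b, Sprr2d, Sprr2h, Serpinb2, Serpinb5, Serpinb11 and Serpinb12. These belong to the Sprr and clade B serpin families, so the promoters are not all independent. The AP-2 letters GCCNNNGGC were in 12.8% and 25.4%, against 20.1% of all, the FOXA letters TGTTTAC in 3.85% and 0%, against 2.21%, and the GRHL letters AACNGGTT in 3.85% and 3.17%, against 1.62%, in columnar and squamous promoters. The HNF4 letters CAAAGTCCA and the p53-family motif were in none of the columnar or squamous promoters, and in 0.323% and 0.266% of all. These shares describe the letters in these windows, and no test was made of them.

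Keratins, the intermediate filament proteins of epithelia, split by tissue. Krt8, on whose name the reporter is based, is given as a description, at 524, 511, 805 and 1239 CPM in columnar and 4.7, 2.15 and 1.85 CPM in squamous libraries. Its partner Krt18 (chromosome 15 at 102028180 to 102032027) had 1101, 1110.3, 939.6 and 1192 CPM in columnar and 19.4, 22.9 and 18.5 CPM in squamous libraries (log2 fold 5.43 ± 0.14, edgeR adjusted p = 8.36e-11), and Krt19 had 780.2 to 1172 CPM in columnar and 6.84 to 12.1 CPM in squamous libraries (6.31 ± 0.23). Krt20 was higher by less (1.59 ± 0.38). The simple keratins Krt7 and Krt23 went the other way, with log2 folds of -0.92 ± 0.20 and -2.50 ± 0.09. Krt7 had 80.9, 105, 135 and 173 CPM in columnar libraries, against 190.0, 176 and 196 CPM in squamous libraries, and its call is lost in the fit of all 14 groups (-0.89). Per length, the columnar order was Krt18 at 1722 ± 205, Krt19 at 1121 ± 210.3 and Krt8 at 890.0 ± 385 TPM (transcript counts scaled by exon length, SD, n = 4), and the last 2 overlap within their spread. In squamous cells Krt5 led at 5723 ± 484 TPM, followed by Krt14 at 3301 ± 467 and Krt17 at 3260 ± 151, which do not differ beyond their spread (n = 3), and Krt10 at 2333 ± 357 TPM.

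Among squamous keratins, the basal Krt5 (chromosome 15 at 101707070 to 101712898) had 10.3, 19.9, 16.6 and 41 CPM in columnar and 5567, 5801 and 6327 CPM in squamous libraries, a log2 fold of -8.39 ± 0.38 (edgeR adjusted p = 4.63e-09). Krt14, its partner, had 4.92, 8.17, 7.7 and 10.7 CPM in columnar and 2555, 2491 and 3120.4 CPM in squamous libraries (-8.75 ± 0.21). Krt15, a basal keratin linked to progenitors, reached 5.69, 12.1, 21.7 and 51.1 CPM in columnar libraries, with the highest value in columnar 4, and 471, 499.6 and 455 CPM in squamous libraries. The basal list also held Cd44, a hyaluronan receptor, at 171, 247, 304 and 235 CPM in columnar and 2221, 2559.8 and 2491 CPM in squamous libraries (-3.65 ± 0.18), and 8 of its 10 tested members were lower. The member that rose was Txnip, a thioredoxin inhibitor, at 314, 334, 351 and 467 CPM in columnar and 19.9, 16.8 and 18.2 CPM in squamous libraries (4.01 ± 0.16). Krt1 and Krt10, keratins of cornifying layers, had log2 folds of -9.93 ± 0.26 and -8.63 ± 0.19, and the stress keratins Krt16 and Krt17 of -11.03 ± 0.21 and -9.60 ± 0.31. Krt4 and Krt13, the suprabasal pair of the oesophagus, were lower in columnar cells at -3.94 ± 0.52 and -7.82 ± 0.35. Krt78 was the exception among the suprabasal genes, at 6.76, 10.0, 4.67 and 10.7 CPM in columnar and 0.313, 0.768 and 0.855 CPM in squamous libraries (3.29 ± 0.42). Of the 11 suprabasal and stress keratins tested, 1 was higher and 10 lower, with a median log2 fold of -8.63. Along chromosome 15 (101347444 to 102032027), 17 genes of the type II keratin cluster were tested, with 13 lower in columnar cells and 3 higher (Krt18 and Krt78 beside Krt8). Along chromosome 11 (99232761 to 100269871), 14 genes of the type I cluster were tested, with 11 lower and 3 higher (Krt19, Krt20 and Krt222). In the epidermal differentiation complex of chromosome 3 (90692632 to 93564643), which holds envelope precursors, 19 of 25 were lower and 4 higher, which are 9130204L05Rik, a coding gene with no role given here, and the copies Sprr2a1, Sprr2a2 and Sprr2a3, whose shared reads leave each one's level uncertain.

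**Figure D3:**
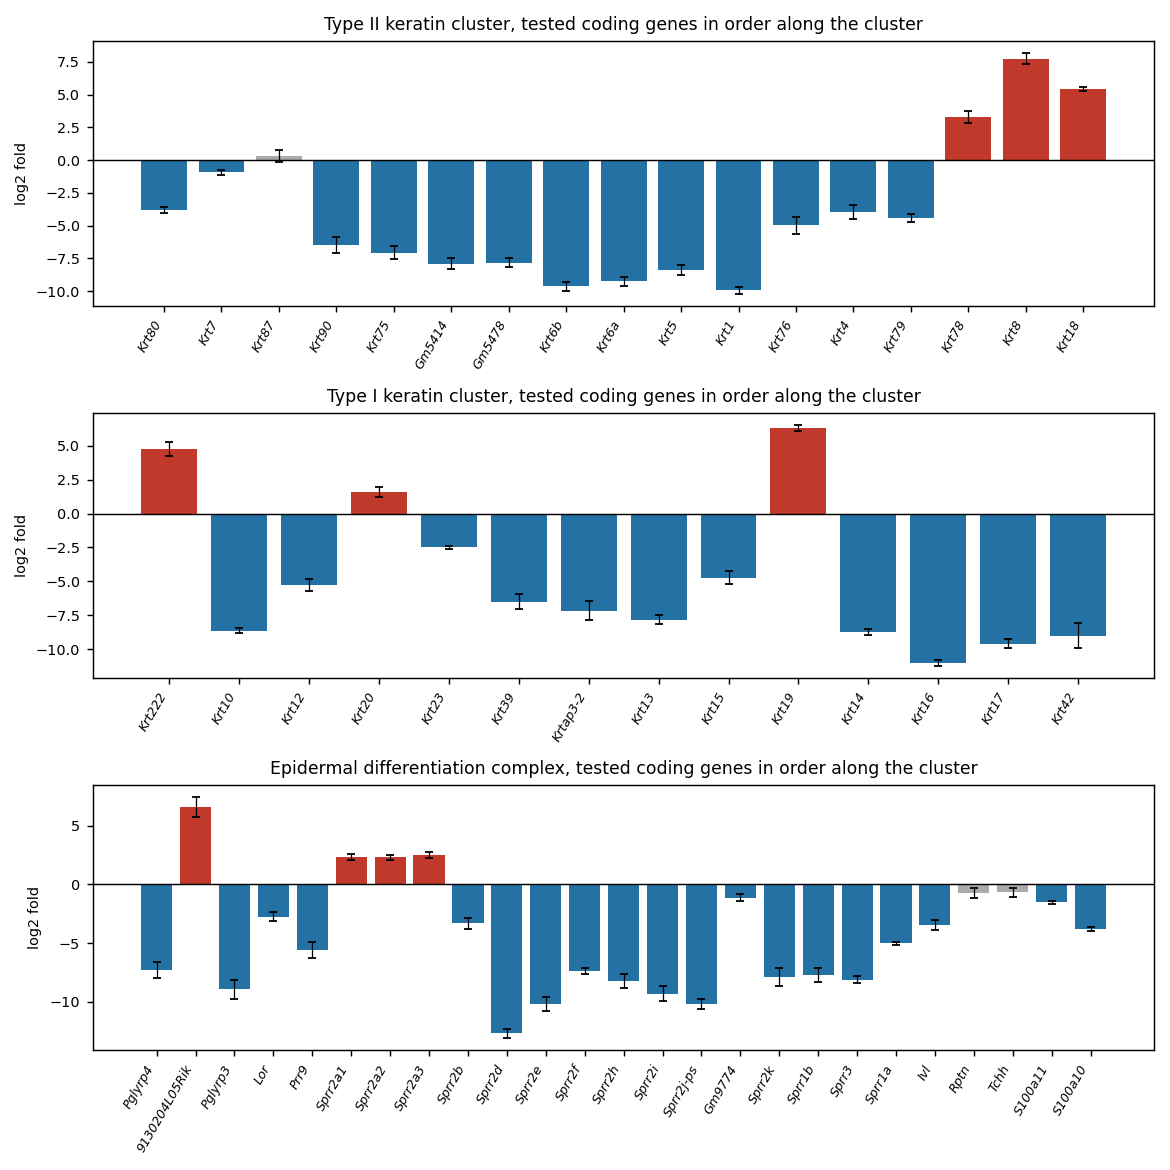
Log2 fold (columnar over squamous, bars) with SE of each tested coding gene in 3 clusters, in order along the chromosome, with grey bars not called. Bars under 0 dominate every cluster, broken by Krt8, Krt18 and Krt78, by Krt19, Krt20 and Krt222, and by 9130204L05Rik and the Sprr2a copies, and fitted folds of genes with no count in a group depend on the prior count.

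Many gastric genes were near 0 in squamous libraries and entered the test through the columnar group. Of 17 autosomal pit and surface cell genes 16 were tested and 16 were higher, with a median log2 fold of 11.10 (11.06 with genes at 0 set to their bound). Muc5ac, the mucin of the surface, had 1016, 832, 2036 and 2380.2 CPM in columnar and 0, 0.307 and 0 CPM in squamous libraries, a ratio of 14973-fold (95% counting interval 4145 to 123641). Tff1, the surface trefoil peptide, had 1527, 1112, 1645 and 1926 CPM in columnar and 0, 0.307 and 0 CPM in squamous libraries. Neither gene passed 1 CPM in a squamous library. Psca, a surface antigen of gastric pits and bladder, rose least, at 328, 316, 332 and 280.1 CPM in columnar and 39.3, 40.0 and 54.2 CPM in squamous libraries (2.51 ± 0.13). Of 12 neck and chief cell genes 10 were tested, and these were higher. Muc6 (chromosome 7 at 141633456 to 141655319), the gland mucin, led them at 16594, 15286, 8837 and 5103 CPM in columnar libraries, against 2.51, 3.07 and 2.57 CPM in squamous libraries (11.73 ± 0.57, edgeR adjusted p = 7.77e-09). Within the gel-forming mucin cluster of chromosome 7, Muc6, Muc5ac and Muc5b were higher and Muc2, the mucin of intestinal goblet cells, was lower, at 0, 0.17, 2.1 and 0.723 CPM in columnar and 13.5, 8.76 and 5.99 CPM in squamous libraries. Of 12 parietal genes 11 were tested, and these were higher too, with a median of 6.40. Atp4a, the catalytic subunit of the proton pump, had 85.6, 259, 60.4 and 104 CPM in columnar and 0.94, 0.154 and 0.143 CPM in squamous libraries (7.94 ± 0.80), with columnar 2 highest. Slc9a4, a basolateral sodium-proton exchanger, was at least 1630.5-fold higher, and Kcnq1, the potassium channel of acid secretion, had a log2 fold of 6.23 ± 0.19.

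**Figure D4:**
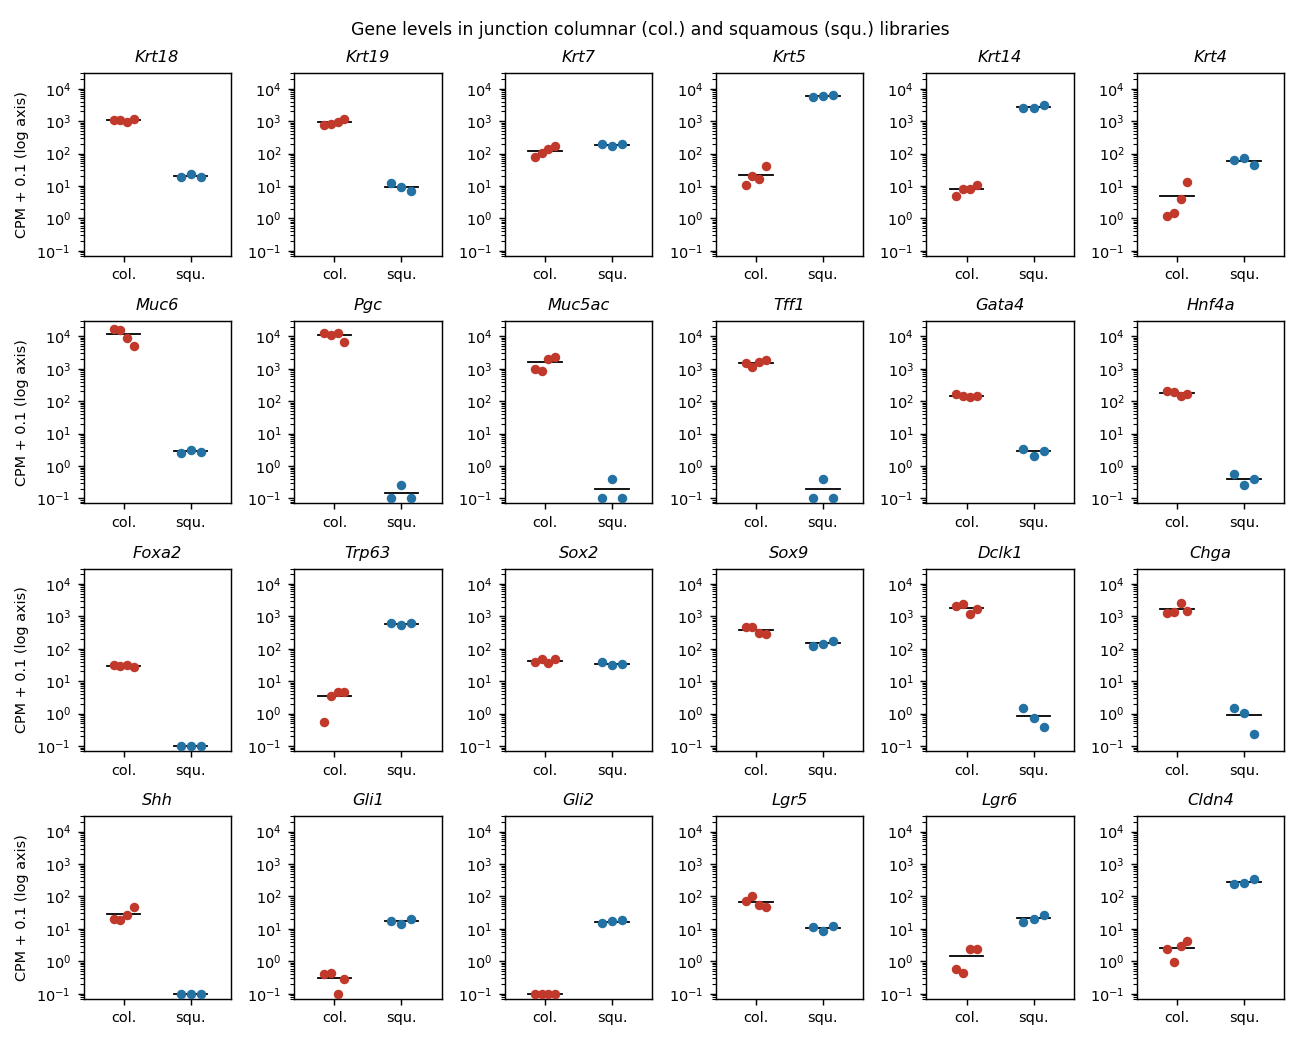
CPM plus 0.1 (log axis) of 24 genes in each of 4 columnar (left) and 3 squamous (right) libraries, with the group mean as a line. Muc6, Pgc, Muc5ac and Tff1 lie far above the squamous points, Krt5, Krt14 and Trp63 far below, and Sox2 overlaps between the groups.

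Endocrine and tuft cell genes were also in the columnar libraries. Of 14 tested enteroendocrine genes, 13 were higher and 1 lower (median 6.64). Chga, the chromogranin of endocrine granules, had 1279, 1337, 2592 and 1504 CPM in columnar and 1.41, 0.922 and 0.143 CPM in squamous libraries (10.69 ± 0.47, edgeR adjusted p = 3.61e-09). Ghrl, which encodes ghrelin, had 681, 290.1, 954 and 636 CPM in columnar libraries, against 1.72, 0.922 and 2.28 CPM in squamous libraries, and Sst, which encodes somatostatin, had 692, 279, 631 and 357 CPM in columnar libraries. Hdc, which makes histamine, stood at 174 ± 84.9 CPM in columnar and 0.154 ± 0.266 CPM in squamous cells (SD). The endocrine factors Neurod1, Nkx2-2, Pax6 and Insm1 were higher at low levels, with at most 18.8 ± 6.5 CPM in columnar cells for Insm1. Cck, which encodes cholecystokinin, was lower, at 1.06 ± 0.984 CPM in columnar and 3.42 ± 1.5 CPM in squamous cells (-1.93 ± 0.55), a call that is lost without squamous 3 (-1.53). All 12 tuft cell genes were higher, with a median of 9.30 (8.40 with bounds). Dclk1, a kinase that marks tuft cells, had 2098, 2396, 1195 and 1705 CPM in columnar and 1.41, 0.615 and 0.285 CPM in squamous libraries (10.91 ± 0.40). Trpm5, the taste channel, had 1112, 1219.7, 615 and 1015 CPM in columnar libraries, against 1.41, 1.23 and 0.998 CPM in squamous libraries, and Gnat3, a taste G-protein subunit, had 102 ± 10.0 CPM in columnar cells, against 0.0475 ± 0.0823 CPM in squamous cells (SD). Summed over 5 endocrine and 3 tuft markers, columnar libraries held 2132 to 4573 and 1914 to 3847 CPM, stomach libraries 291 and 21.6 CPM and 45.0 and 1.88 CPM.

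Most tested genes of the intestinal and secretory lists were higher. Of 13 tested intestinal genes, 12 were higher and 1, Muc2, was lower, while 9 were not tested for lack of counts, among them the enterocyte genes Alpi, Sis and Lct. Vil1, the actin bundler of brush borders, had 266, 296, 169 and 225 CPM in columnar and 0.47, 0.154 and 0.428 CPM in squamous libraries (9.03 ± 0.33). Cftr, the chloride channel, had a log2 fold of 5.79 ± 0.25, and Apob, an apolipoprotein, was at least 1300.2-fold higher. The intestinal master factors Cdx1 and Cdx2 reached at most 2 counts in a library and were not tested. Of 14 tested secretory genes, 12 were higher, among them Agr2, a disulfide isomerase of mucin folding, at 602 to 1237 CPM in columnar and 0 to 0.783 CPM in squamous libraries (10.88 ± 0.48). Pigr, which carries IgA across epithelia, had 1287, 1468, 2606 and 1573 CPM in columnar libraries, against 2.51, 1.23 and 0.855 CPM in squamous libraries (9.84 ± 0.41). The membrane mucins were higher in 6 of 7 tested. Muc1 and Muc4 had log2 folds of 8.61 ± 0.19 and 8.80 ± 0.37, and Muc15 was the member that fell.

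Mucosal defence genes differed by member. Of 11 tested, 7 were higher and 3 lower. Duox2, a hydrogen peroxide producing oxidase, had 73.3, 75.2, 119.9 and 86.2 CPM in columnar and 3.29, 1.84 and 2 CPM in squamous libraries (4.90 ± 0.27), whereas its paralogue Duox1 was lower (-6.93 ± 0.17). Slpi, a secreted protease inhibitor, and Defb1, a defensin, were lower too, at 1.49 ± 1.87 and 0.0877 ± 0.101 CPM in columnar and 35.2 ± 6.85 and 24.1 ± 2.5 CPM in squamous cells (SD). The lectin Reg3g was at least 196-fold higher. Of 15 antigen presentation and interferon genes tested, 12 were higher and none lower, with a median of 3.73. Cd74, the invariant chain of MHC class II, had 115, 68.2, 235 and 331 CPM in columnar and 2.35, 1.69 and 2.14 CPM in squamous libraries (6.17 ± 0.63). Oas2, an interferon-induced gene, had 25.4, 30.3, 114 and 40.3 CPM in columnar libraries, with columnar 3 apart from the others, and 0.157, 1.08 and 0.285 CPM in squamous libraries. Among columnar libraries Ptprc, given above, was highest in 1 and 2. The summed level of this list was 340, 297, 851 and 796 CPM in libraries 1 to 4, highest in 3 and 4. The part of cells that carry Ptprc in these levels was not tested.

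Of 18 listed transcription factors of the endoderm, 12 were tested and were higher, with a median of 7.34 (6.81 with bounds). The other 6 had too few counts to be tested, and 3 of the tested ones had no count in squamous libraries. Gata4 had 172, 139.9, 139 and 146 CPM in columnar and 3.29, 2 and 2.85 CPM in squamous libraries (5.46 ± 0.16, edgeR adjusted p = 2.03e-10). Gata5 was at least 745-fold higher, and Gata6 had a log2 fold of 7.55 ± 0.23. Hnf4a, a nuclear receptor of glandular endoderm, had 212, 189, 143 and 167 CPM in columnar and 0.47, 0.154 and 0.285 CPM in squamous libraries (8.81 ± 0.26). Foxa2 and Foxa3 had no and 1 squamous count, but Foxa1 was shared, at 409 to 468 CPM in columnar and 173 to 185 CPM in squamous libraries (0.97 ± 0.09).

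Of 19 squamous factors tested, 16 were lower, 1 was higher and 2 were not called, with a median of -2.90. Trp63 (chromosome 16 at 25683763 to 25892102), which encodes p63, had 0.461, 3.4, 4.67 and 4.7 CPM in columnar and 617, 557 and 609.9 CPM in squamous libraries (-7.86 ± 0.31, edgeR adjusted p = 1.56e-09). Tfap2c, an AP-2 factor, had no columnar count and was at least 151-fold lower, and Grhl3 had a log2 fold of -5.69 ± 0.21. Klf4, a factor of differentiating layers, and Klf5, of dividing ones, had log2 folds of -2.64 ± 0.13 and -1.10 ± 0.10 and stayed at 168 to 248 and 327 to 409 CPM in columnar libraries. Foxe1 was the factor that was higher, at 30.4, 26.5, 10.3 and 20.4 CPM in columnar and 4.07, 2.31 and 4.28 CPM in squamous libraries (2.32 ± 0.35). Sox2, a factor of foregut progenitors, had 40.0, 48.3, 35.5 and 48.8 CPM in columnar and 38.7, 31.4 and 33.5 CPM in squamous libraries and a log2 fold of 0.01 ± 0.13 (adjusted p = 0.931, edgeR), and Sox21 had 34.7, 35.7, 49.7 and 40.5 CPM in columnar and 33.8, 32.3 and 27.9 CPM in squamous libraries (0.04 ± 0.15, adjusted p = 0.81). Both were called higher when library totals alone set the scale, and the sign of both changes in some settings, given with the settings in the closing section. Across the Sox list, Sox9, Sox4 and Sox13 were higher and Sox6, Sox7 and Sox15 lower, and with library totals alone 6 were higher and 3 lower. Sox9, a factor of glandular progenitor cells, had 465, 482, 299.6 and 278 CPM in columnar libraries, against 126, 142 and 170.3 CPM in squamous libraries (1.07 ± 0.20). Sox6 had 1.54, 1.02, 2.1 and 1.81 CPM in columnar and 223, 245 and 198 CPM in squamous libraries (-7.43 ± 0.16). Of 21 Hox genes, 3 passed the filter and all 3 were lower: Hoxc4 (-3.90 ± 0.23), Hoxc5 (-6.05 ± 0.21) and Hoxc6 (-4.38 ± 0.39).

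Junction and adhesion genes divided along the same border. Of 12 desmosome genes tested, 10 were lower, and only Dsg2 and Pkp2 of the list were higher. Dsg3, a basal desmoglein, had 0.307, 0.681, 1.63 and 2.35 CPM in columnar and 867, 1017 and 1219 CPM in squamous libraries (-10.06 ± 0.29), and Dsc3 went with it (-9.05 ± 0.24). Dsg2 had 257, 306, 265 and 324 CPM in columnar and 107, 106 and 112 CPM in squamous libraries (1.10 ± 0.10). Pkp2, a plakophilin of simple epithelia, had 66.5 ± 4.29 CPM in columnar cells, against 0.699 ± 0.136 CPM in squamous cells (SD, 6.22 ± 0.18). In the desmosomal cadherin cluster of chromosome 18 (19960930 to 20604521) 7 genes were tested, with 6 lower and Dsg2 higher. Epcam, which the sort used, was at 505 to 604 CPM in columnar and 183 to 224 CPM in squamous libraries. Cdh1, the E-cadherin gene, was at 1078 to 1244 CPM in columnar and 1132 to 1246 CPM in squamous libraries, a log2 fold of -0.33 ± 0.09 that is called lower and is -0.02, not called, with library totals alone. Of 22 genes listed for columnar junctions and polarity, 13 were higher and 6 lower (13 and 4 with library totals alone). Prom1 and Tspan8, membrane proteins of the apical side and of vesicles, had log2 folds of 9.67 ± 0.24 and 10.10 ± 0.24. Cldn4, a tight junction claudin of the same list, had 2.31, 0.851, 2.8 and 4.16 CPM in columnar and 245, 259 and 347 CPM in squamous libraries (-7.13 ± 0.25). Cldn1, a claudin of stratified epithelium, had a log2 fold of -10.73 ± 0.22. The gap junction gene Gja1 was at 20.2 ± 5.67 CPM in columnar and 1405 ± 82.9 CPM in squamous cells. Of 15 basement membrane adhesion genes, 13 were lower and 2 higher. Col17a1, a hemidesmosome collagen, had 7.4 ± 3.39 CPM in columnar and 1036 ± 111 CPM in squamous cells (SD, -7.46 ± 0.26). The hemidesmosome integrins differed less, with Itga6 at 324 ± 32.8 CPM in columnar and 448 ± 20.6 CPM in squamous cells and Itgb4 at 259 ± 25.7 and 259 ± 7.45 CPM (SD), log2 folds of -0.78 ± 0.10 and -0.31 ± 0.09. The libraries of Itgb4 overlapped, and its fold is only of the size of the median shift of 0.31 made by scaling with library totals alone. With library totals alone 9 of the 15 were lower.

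Most tested members of the envelope list and of the serpin and kallikrein list were lower. Of the listed genes, 4 of 28 and 5 of 16 were not tested. Of 24 cornified envelope genes tested, 21 were lower and 1, Sprr2a1, was higher, with a median of -6.79 (-6.26 with bounds). Krtdap, a differentiation peptide, and Lgals7, a galectin of stratified cells, had log2 folds of -10.36 ± 0.20 and -9.93 ± 0.17. Lypd3 was at 0.898 ± 0.62 CPM in columnar and 734 ± 52.8 CPM in squamous cells. Of 11 serpin and kallikrein genes tested, 10 were lower. By position, all 6 tested genes of the clade B serpin cluster on chromosome 1 (106861173 to 107610484) were lower, and so were all 5 of the kallikrein cluster on chromosome 7 (43690418 to 43939639). The lipoxygenases Alox12b and Aloxe3, of the skin barrier pathway, and Alox12 were lower, and Alox15 and Alox12e were higher, with Alox15 at 10.6, 15.1, 12.4 and 23.1 CPM in columnar and 2.35, 0.615 and 2 CPM in squamous libraries (2.88 ± 0.39).

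Hedgehog ligands were higher and the Gli genes lower in columnar cells. Shh had 19.8, 18.5, 26.4 and 46.3 CPM in columnar libraries and no squamous count, at least 181-fold higher (edgeR adjusted p = 3.97e-06). Ihh had 52.9, 42.9, 46.7 and 57.1 CPM in columnar and 0, 0.307 and 0.143 CPM in squamous libraries, a ratio of 332-fold (95% counting interval 113 to 1614). Gli1, the readout gene of the pathway, had 0.307, 0.34, 0 and 0.181 CPM in columnar and 17.5, 13.7 and 19.5 CPM in squamous libraries (-6.41 ± 0.34), Gli2 had no columnar count and was at least 125-fold lower, and Gli3 had a log2 fold of -7.56 ± 0.31. Smo, the transducer, was at 24.2 to 41.9 CPM in columnar and 65.3 to 70.2 CPM in squamous libraries (-1.27 ± 0.16). The co-receptors Gas1 and Boc were lower (-5.35 ± 0.46 and -1.76 ± 0.18), and Cdon was higher (2.21 ± 0.21). Ptch1, the receptor and a target, was not called at 34, 33.2, 30.1 and 28.9 CPM in columnar and 27.1, 29.2 and 33.8 CPM in squamous libraries (-0.24 ± 0.12), and its fold was 0.07 with library totals alone. Across the list, 4 of 14 genes tested were higher and 7 lower, where 39.4% of all genes tested were higher and 35.1% lower. Hhip, Dhh and Scube2 were not tested.

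Of 20 tested Wnt genes, 8 were higher and 10 lower, where 39.4% of all genes tested were higher and 35.1% lower. The ligands Wnt7b and Wnt10a were lower, Wnt10a at -6.70 ± 0.33, while Wnt11 was higher (2.72 ± 0.36). The receptors Lgr5, a gastric stem cell marker, and Lgr6 diverged. Lgr5 had 73, 101, 53 and 45.9 CPM in columnar and 11.1, 8.76 and 12.3 CPM in squamous libraries (2.36 ± 0.27), and Lgr6 had 0.461, 0.34, 2.33 and 2.35 CPM in columnar and 16, 20.3 and 27.7 CPM in squamous libraries (-4.35 ± 0.41). The antagonist Sfrp1 was lower (-4.85 ± 0.19), and the target Nkd1 higher (4.67 ± 0.35), whereas the target Axin2 was not called. Notch receptors were lower: Notch1 (-1.92 ± 0.10), Notch2 (-2.19 ± 0.15) and Notch3 (-4.88 ± 0.19). The ligand Dll4 and the fringe enzyme Lfng were higher, Lfng at 21.4, 21.8, 15.4 and 18.1 CPM in columnar and 0.783, 1.08 and 1.28 CPM in squamous libraries. Of BMP and TGF-beta genes, 8 of 21 were higher and 12 lower. The BMP targets Id1 and Id3 were higher (3.28 ± 0.18 and 1.95 ± 0.14) and the ligands Inhba and Tgfb2 lower (-7.63 ± 0.28 and -6.38 ± 0.33).

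Of 13 ERBB genes, 8 were lower and 4 higher. Egfr had 35.1, 26.2, 38.3 and 45.7 CPM in columnar and 333, 358 and 359 CPM in squamous libraries (-3.59 ± 0.14), and its ligands Epgn (-8.10 ± 0.27) and Ereg (-6.23 ± 0.24) were lower with it, while Erbb3 was slightly higher (0.40 ± 0.11). Among FGF genes 5 of 12 were higher and 4 lower, with Fgf9 higher (4.22 ± 0.38) and Fgfr2 lower (-0.91 ± 0.09), shares near those of all genes tested (39.4% higher and 35.1% lower). Of 14 retinoic acid genes tested, 5 were higher and 8 lower, and with library totals alone 5 were higher and 5 lower. Cyp26b1, which degrades retinoic acid, had 0.154, 0.34, 0.233 and 0.181 CPM in columnar and 208, 224 and 172 CPM in squamous libraries (-9.98 ± 0.21), and the receptors diverged, Rara higher (2.34 ± 0.17) and Rarg lower (-2.14 ± 0.12).

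Transport and metabolic genes were called in both directions, where 39.4% of all genes tested were higher and 35.1% lower. Of 21 pumps and channels, 12 were higher and 7 lower. Atp1b1, a sodium pump subunit, had 1231, 1259, 1047 and 1062 CPM in columnar and 27.9, 23.2 and 16.5 CPM in squamous libraries (5.36 ± 0.19), and Slc12a2, a chloride cotransporter, had a fold of 3.78 ± 0.15. Car12, a carbonic anhydrase, and the water channel Aqp3 were lower (-4.68 ± 0.16 and -3.64 ± 0.20). Of 20 xenobiotic enzymes, 6 were higher and 13 lower. Adh1, an alcohol dehydrogenase, had 902, 995, 506 and 785 CPM in columnar libraries, against 3.13, 4.15 and 2.71 CPM in squamous libraries (7.59 ± 0.29), and Aldh3b2 went the other way (-6.93 ± 0.20). Respiratory chain genes gave 7 higher and 7 lower of 20, near the share of all genes, with a median of -0.11. With library totals alone they gave 10 higher and 0 lower. Their direction thus changes with the scaling. Of 31 cell cycle genes, 22 were lower and 4 higher (18 and 6 with library totals alone). Mki67, the proliferation antigen, was at 287, 224, 342 and 398 CPM in columnar and 649, 642 and 726 CPM in squamous libraries (-1.42 ± 0.16), Top2a, a topoisomerase, at 86.2, 76.9, 101 and 118 CPM in columnar and 386, 312 and 428 CPM in squamous libraries (-2.29 ± 0.14), and Myc had a fold of -2.37 ± 0.14. The mitotic kinase gene Plk1 was higher (2.13 ± 0.14), as were Cdk2 (1.14 ± 0.20) and Ccnd3 (0.70 ± 0.15).

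Columnar libraries varied among themselves in the products of gland cells. Summed neck and chief cell markers were 34796, 31505, 25719 and 14190 CPM, and summed pit cell markers 5899, 4383, 7209 and 7653 CPM in libraries 1 to 4, and parietal markers were 100.1, 339, 72.8 and 131 CPM in the same libraries. Pgc ran from 6689 to 12875 CPM, Muc6 from 5103 to 16594 and Muc5ac from 832 to 2380.2. Gata4 ran from 139 to 172 CPM and Hnf4a from 143 to 212 CPM. Replicates of 1 group have no order, and what separates columnar 1 and 2 from 3 and 4 is not given by the labels used here. The squamous libraries correlated more closely, as given above, with Krt5 from 5567 to 6327 CPM and Trp63 from 557 to 617 CPM.

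The same reporter also split SmoM2 cells, and the junction contrast differed from that split in many genes by a test of the difference (the junction log2 fold minus that of K8YFP+ over K8YFP-, in 1 edgeR fit of 13 libraries). Of 17737 autosomal genes tested there, 8864 (50.0%) were called, 4457 with the junction fold higher (25.1%) and 4407 with it lower (24.8%). Of 4669 genes higher in junction columnar cells and tested in both pairs, 506 were also higher in K8YFP+ cells, which is 10.8% of the junction list and 28.0% of the reporter list, and 177 were lower, where 12.8% of the genes tested in both were higher in K8YFP+ cells. Of 5525 junction-lower genes, 614 were also lower in K8YFP+ cells (11.1% and 60.7%), and 930 were higher, where 7.16% of the genes tested in both were lower in K8YFP+ cells. Rgs13 had 0, 0 and 0 CPM in K8YFP+ and 0, 0 and 0.11 CPM in K8YFP- cells, and its difference of log2 folds was 15.73 ± 5.82 (edgeR adjusted p = 0.0455). Ltc4s, which makes leukotriene C4, Rac2, a small GTPase, and Pappa2, a protease of IGF-binding proteins, had 69.8 to 162, 55.1 to 206 and 62.7 to 154 CPM in junction columnar libraries and differences of 15.37 ± 2.90, 14.73 ± 5.18 and 14.71 ± 3.28. All 4 genes had no count in K8YFP+ cells and at most 0.22 CPM in a K8YFP- library, so no fold is given for that pair. Each K8YFP+ library held fewer counts in total than any K8YFP- library. A level of 3 counts over the group was 0.247 CPM in K8YFP+ and 0.111 CPM in K8YFP- cells, so absence is less certain in K8YFP+ cells. Sprr2d had 9.69, 74.7 and 4.45 CPM in K8YFP+ and 2.58, 2.14 and 0.11 CPM in K8YFP- cells, a difference of -17.01 ± 2.00. Spink5 had 1429.8, 1771 and 1453 CPM in K8YFP+ and 324, 145 and 94.7 CPM in K8YFP- cells, higher with the reporter there and lower with it at the junction, a difference of -14.22 ± 0.72. Muc15 had 144, 148 and 162 CPM in K8YFP+ and 42.9, 22.6 and 21.4 CPM in K8YFP- cells (-13.87 ± 0.66), and the nuclease Dnase1l3 had 260.4, 331 and 268 CPM in K8YFP+ and 53.8, 8.13 and 12 CPM in K8YFP- cells (-13.86 ± 1.44). These differences are on the fitted scale, which depends on the prior count where a group has no count.

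Stomach over WT oesophagus, a pair of a columnar and a squamous tissue, was the other contrast set beside the junction. Of 18581 genes in 1 edgeR fit of 15 libraries, 5563 (29.9%) had a different fold. Of 5555 junction-higher genes tested in both, 3729 were also higher in stomach (67.1% of the junction list and 75.3% of the stomach list) and 258 were lower, where 32.3% of the genes tested in both were higher in stomach. Of 5657 junction-lower genes, 3530 were also lower in stomach (62.4% and 77.6%) and 293 were higher, where 29.7% were lower in stomach. WT cells were low for EpCAM and of another strain, so gate and strain differ in that pair. Libraries WT 3 and WT 5 lay close together (chi-square over degrees of freedom 1.83), as did WT 4 and WT 6 (2.31), where the other WT pairs gave 9.94 to 31.5. With each of these close pairs summed as 1 library 4990 genes had a different fold. Psca, a pit cell antigen, had 1123 and 1198 CPM in stomach and 0 to 0.405 CPM in WT cells, and its difference was -10.37 ± 0.34 (edgeR adjusted p = 5.75e-12). Wdr72, a WD-repeat gene, had 20.6 and 22.6 CPM in stomach and no count in WT cells, against 26.1 to 45 CPM in junction columnar and 15.4 to 22.9 CPM in junction squamous libraries, a difference of -9.64 ± 0.57, and its junction fold is not called without squamous 2. Car2, a carbonic anhydrase of gastric cells, had 2602 and 2143 CPM in stomach and 0.746 to 3.65 CPM in WT cells, with a difference of -8.93 ± 0.32. Foxe1 ran the other way, with no count in stomach and 2.94 to 10.8 CPM in WT cells (10.73 ± 1.41). At the junction Iigp1 had 4.93 to 23.1 CPM, Ly6g6f 12.1 to 28.9 CPM and Scn7a 44.3 to 64.7 CPM in columnar libraries and no squamous count. Iigp1, an interferon-induced GTPase, had 0 and 0 CPM in stomach and 0.101 to 0.365 CPM in WT cells. Ly6g6f, a Ly6 gene, had 0.131 and 0 CPM in stomach and 0.118 to 0.244 CPM in WT cells. Scn7a, a sodium channel, had 1.05 and 0 CPM in stomach and 0 to 0.852 CPM in WT cells. Their differences were 12.81 ± 2.41, 11.05 ± 1.33 and 10.39 ± 1.48. Calcb had 0 and 0.626 CPM in stomach and 2.44 to 5.47 CPM in WT cells, with a difference of -8.30 ± 2.31. Each of these 4 genes, and Wdr72 and Foxe1, had no count in one of the groups, so the size of the difference depends on the prior count and is no bound.

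**Figure D5:**
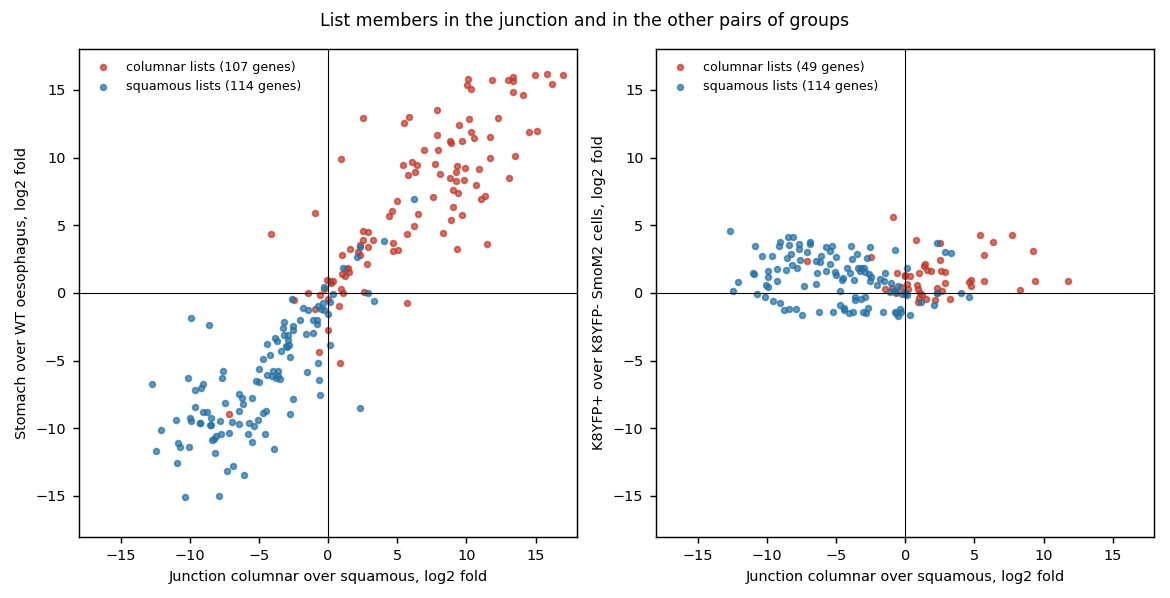
Log2 fold of list members in junction columnar over squamous cells (x) against stomach over WT oesophagus (left, y) and K8YFP+ over K8YFP- SmoM2 cells (right, y), coloured by columnar and squamous lists. Most points of the left panel lie at the lower left or the upper right, and many in the right panel lie near 0 on the y axis. Over all genes tested in both pairs, not the list members alone, 67.1% of junction-higher genes were also higher in stomach.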

How the data were processed

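Total RNA of sorted mouse epithelial cells was sequenced from NuGEN Ovation Solo libraries on an Illumina NovaSeq, per the labels' protocols. The authors deposited whole-number counts of reads for each Ensembl gene, and the submitters' processing notes name STAR 2.5.3a, HTSeq, edgeR and the builds GRCm38 and mm10. No source used here gives the annotation release or whether counting used strand, so overlapping and antisense genes and near-identical copies (Krt6a and Krt6b, the Sprr2 genes) are uncertain. The table's 1 line naming no gene was left out. Symbols and GRCm38 coordinates came from GENCODE M21, which holds 52489 of the 52636 identifiers.

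Junction columnar and squamous libraries were fitted in R 4.3.3 with edgeR 4.0.16 (TMM, filterByExpr with a minimum count of 10 and a minimum total of 15, quasi-likelihood F test, Benjamini-Hochberg adjustment over all genes of the fit, threshold 0.05). Autosomal genes were counted. The same test of a difference of log2 folds was made in a fit with the K8YFP+ and K8YFP- groups (13 libraries) and in a fit with stomach and WT (15 libraries). An exact permutation test of 4 against 3 libraries cannot go below a two-sided p of 0.0571 and was not used. CPM use plain library totals, and folds use TMM. TPM divide counts by the exon length of each gene. Totals were 4286047 to 7015437 counts, so that 1 count is 0.143 to 0.233 CPM in a junction library. Scripts were tested on simulated data.

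The 40 gene lists and the marker genes were chosen with earlier results of these data known, and so was the comparison. Genes named are fixed anchor genes, up to 4 called members of each list in each direction with the smallest p (any tested member of the transcription factor, keratin, Hedgehog, Sox and endocrine lists), and the 12 largest folds and 4 largest differences in each direction. Folds and differences were taken among called protein-coding genes whose absolute log2 fold was 1 or more, whose higher group averaged 10 CPM or more and whose libraries did not overlap. The text names fewer genes than the rule gives. Alpi, Sis, Lct, Cdx1, Cdx2, Itga6, Itgb4, Dhh, Scube2, Hhip, Axin2, Mki67, Adgre1, Tyrobp, Muc5b, Krt222, 9130204L05Rik, Sprr2a2 and Sprr2a3 fall outside this rule and were chosen after their values were seen. Promoters and motifs came from RefSeq on GRCm38.p6.

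Alternatives were RLE size factors, DESeq2 1.42.0, no filter on low counts, a fit of all 14 groups, autosomal genes alone, a minimum absolute log2 fold of 1, thinning to the smallest library, a replicate block, leaving out each library in turn and, chosen after seeing the data, scaling by library totals alone.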

Additional observations from a re-analysis of the deposited data

Results flagged for a closer look

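In 20 of the 303 genes named by the rule, 1 columnar library stood apart from the others by more than Dixon's 95% critical value for a group of 4, which chance passes in about 1 in 20 groups. The share of the range taken by that gap is given for each. Columnar 3 was apart for Oas2 (0.832, at 114 CPM against 25.4 to 40.3 CPM in the others), Oas1a (0.864), Egf (0.889), Col7a1 (0.874), Car12 (0.843), Flt1 (0.834) and Hes1 (0.899), each time as the highest, and for Klk10 (0.851), where it held no count. Columnar 4 was highest for Gstm1 (0.842) and Laptm5 (0.843), columnar 1 for Ndufb8 (0.837) and Ndufv1 (0.969), and columnar 2 was lowest for Gkn2 (0.918, at 1290 CPM against 1765 to 1807 CPM in the others). In Krt76, Klk13, Crabp2, Cd3e, Gpnmb, Pi15 and Mt4 the share was 1 because a single columnar library held any count.

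The test of the difference flagged 8864 genes against the reporter split of SmoM2 cells and 5563 against stomach over WT oesophagus, of which the rule names 16. Against the reporter split the differences of log2 folds were 15.73 for Rgs13, 15.37 for Ltc4s, 14.73 for Rac2 and 14.71 for Pappa2, and -17.01 for Sprr2d, -14.22 for Spink5, -13.87 for Muc15 and -13.86 for Dnase1l3. Spink5, Muc15 and Dnase1l3 were higher in K8YFP+ than in K8YFP- cells in all 3 libraries of each group and lower in columnar than in squamous junction libraries. Against stomach over WT the differences were 12.81 for Iigp1, 11.05 for Ly6g6f, 10.73 for Foxe1 and 10.39 for Scn7a, and -10.37 for Psca, -9.64 for Wdr72, -8.93 for Car2 and -8.30 for Calcb. Psca, Wdr72 and Car2 were higher in the columnar tissue of both pairs, and WT cells held at most 0.405, 0 and 3.65 CPM of them, where squamous junction libraries held 39.3 to 54.2, 15.4 to 22.9 and 420.4 to 474 CPM.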

How the results depend on the processing

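The counts of called genes stayed within 1.5 times under every alternative run but the minimum absolute log2 fold of 1, which left 6134 junction genes, 4544 of the difference from the reporter split and 1784 of that from stomach over WT. Leaving out each library in turn gave 11798 to 12005, 8201 to 8993 and 4063 to 6009 genes for these comparisons, where a lone stomach library is assumed to vary like the other groups. With replicate number as a block the counts were 12002, 8796 and 4579. Thinning to the smallest library gave 11340, 5995 and 4453. For the reporter split, 5995 against 8864 without thinning came close to the limit of 1.5 times. The genes tested in that comparison fell from 17737 to 13243, so its count of calls depends on depth. Pairing by number was not seen. Residuals of columnar and squamous libraries with the same number correlated at 0.016, -0.0543 and -0.0309, and not every library correlated best with its own number. With so few libraries, these correlations cannot show whether the same animals gave both groups. Sox2 changed sign to -0.0017 with DESeq2, -0.0016 with RLE size factors, -0.0479 with the block, and gave -0.0571 to 0.1018 when each library was left out, below 0 without columnar 2, columnar 4, squamous 2 or squamous 3. Sox21 gave -0.065 to 0.1258 when each library was left out, below 0 without columnar 3 (-0.065) or squamous 3 (-0.0546), and Ptch1 changed sign to 0.0735 with library totals alone. Beside Cck and Wdr72, the call was lost for Itga3 without squamous 3 (0.29) and for Cdkn1b without squamous 1 (0.38) or squamous 3 (0.28), and in the fit of all 14 groups for Krt7 (-0.89), Cdh1 (-0.30), Itga3 (0.38) and Acta2 (-1.78). The minimum fold ended the calls of 38 of the 303 genes named by the rule. The cause of these changes was not tested. Among lists, the minimum fold left 0 respiratory chain, 14 cell cycle, 12 columnar junction, 10 Wnt, 8 hemidesmosome, 8 retinoic acid and 3 FGF genes called. Without a filter on low counts, 5 Hox, 11 fibroblast, 4 endothelial and 4 muscle genes were called. Depth limits genes under about 3 counts per group, for which only bounds or counting intervals are given.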
